A study of Mus musculus with 8 samples.

Results

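The 63 cytosolic ribosomal protein genes measured here showed no difference in thymus RNA after spaceflight that passed the test, and none of them differed by more than 1.41-fold. They were chosen by name: symbols in the platform annotation that start with Rpl, Rps or Rplp followed by a digit, and Rpsa, leaving out the Rps6k kinases and names ending in -ps. Each gene was read from its single-gene probe set of highest mean over the 8 arrays. This gave 38 genes named for the large subunit and 25 named for the small subunit, of 19938 genes with a single-gene probe set. Paralogs fit the rule too, as does Rps19bp1, which is not itself a ribosomal protein. Another 20 genes of the rule, among them Rpl3, Rpl11, Rpl17, Rpl31, Rpl39, Rpl22l1, Rps24, Rps26 and Rps27, were named only by probe sets that list several genes and have no value here.

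The study compared thymus lobes of 4 mice of strain C57BL/6NTac flown aboard a space shuttle for 13 days with those of 4 ground-control mice. All were young adults, 8 weeks of age, the controls were matched for age and sex, and flown and control mice alike were housed in animal enclosure modules. Total RNA from each mouse went onto a single Affymetrix array, and the values are log2 expression values. The tissue was whole thymus lobe, so a lower share of a cell type and less RNA per cell cannot be told apart.

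The cytosolic ribosome joins amino acids into protein in its large subunit and reads the messenger RNA in its small subunit, and each subunit carries many different proteins on a ribosomal RNA core. Ribosomal protein mRNAs are among the most abundant of a growing cell. They begin with a tract of pyrimidines at the very 5′ end, the terminal oligopyrimidine or TOP motif, through which mTOR signalling sets how much of them is translated. In the thymus, dividing thymocytes are the main users of new ribosomes, and loss of a single large-subunit protein, Rpl22, is known to block the αβ T cell lineage through p53.

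Before any comparison, 2 arrays looked unlike the remaining 6, those of spaceflight replicates 1 and 3. The interquartile range of their values was 2.43 in both, against 2.68 to 2.95 elsewhere, and they correlated with the other 6 arrays at 0.954 to 0.984, where those 6 correlated with each other at 0.986 to 0.994. Values without them are given below beside the results that they move most. Double-positive thymocyte markers (Rag1, Rag2, Cd4, Cd8a, Cd8b1 and Ptcra, 6 measured) had a log2 summed level of 13.83 to 13.94 in ground control and 13.68 to 13.84 in spaceflight, so the defining markers of the labelled tissue were present. Thymic epithelial markers (6 of 6 measured) summed to 12.41 to 12.50 and 12.02 to 12.53, and macrophage markers (4 of 4) to 10.06 to 10.34 and 9.21 to 10.61, both lowest in spaceflight 1 and highest in spaceflight 4. Markers of fat (4 of 4) ran from 11.53 to 11.92 and 10.78 to 11.69, and those of muscle (4 of 4) from 10.18 to 11.25 and 8.15 to 11.16. Those of B cells (3 of 4) ran from 8.14 to 8.88 and 8.11 to 8.86, red cells (2 of 4) from 7.85 to 8.85 and 7.05 to 8.10, and fibroblasts with endothelium (4 of 4) from 9.88 to 10.62 and 9.83 to 10.28. No marker was listed at 0, but dim probe sets on these arrays stay above 0 too, so presence cannot be read from that. The part these cells play in the values below was not tested.

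With limma and Benjamini-Hochberg adjustment over all 28943 probe sets, 0 of 63 ribosomal protein genes rose and 0 fell at an adjusted p under 0.05. Over all probe sets 0.0484% passed, 0.0138% higher and 0.0346% lower. The smallest adjusted p of any of the 63 was 0.462. At an unadjusted p under 0.05, 2 of the 63 were higher (Rpl39l and Rpl7a) and 1 was lower (Rps19bp1), where 4.2% of all probe sets were higher and 5.96% lower by that measure. The mean was higher in spaceflight for 36 of the 63 genes, or 57.1%, against 51.7% of all probe sets and 46.5% of the 19938 genes read the same way, 1 probe set each. The groups did not overlap in 0 genes with spaceflight higher (1.75% of all probe sets) and in 1 gene with spaceflight lower, Rpl7l1 (3.75% of all probe sets). Rpl39l, Rps19bp1 and Rpl7l1 are no standard subunits. In the 54 genes left without such members, a set chosen after the values were seen, 1 was higher at an unadjusted p under 0.05 (Rpl7a) and 0 were lower. The groups overlapped in all 54.

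**Figure D1:**
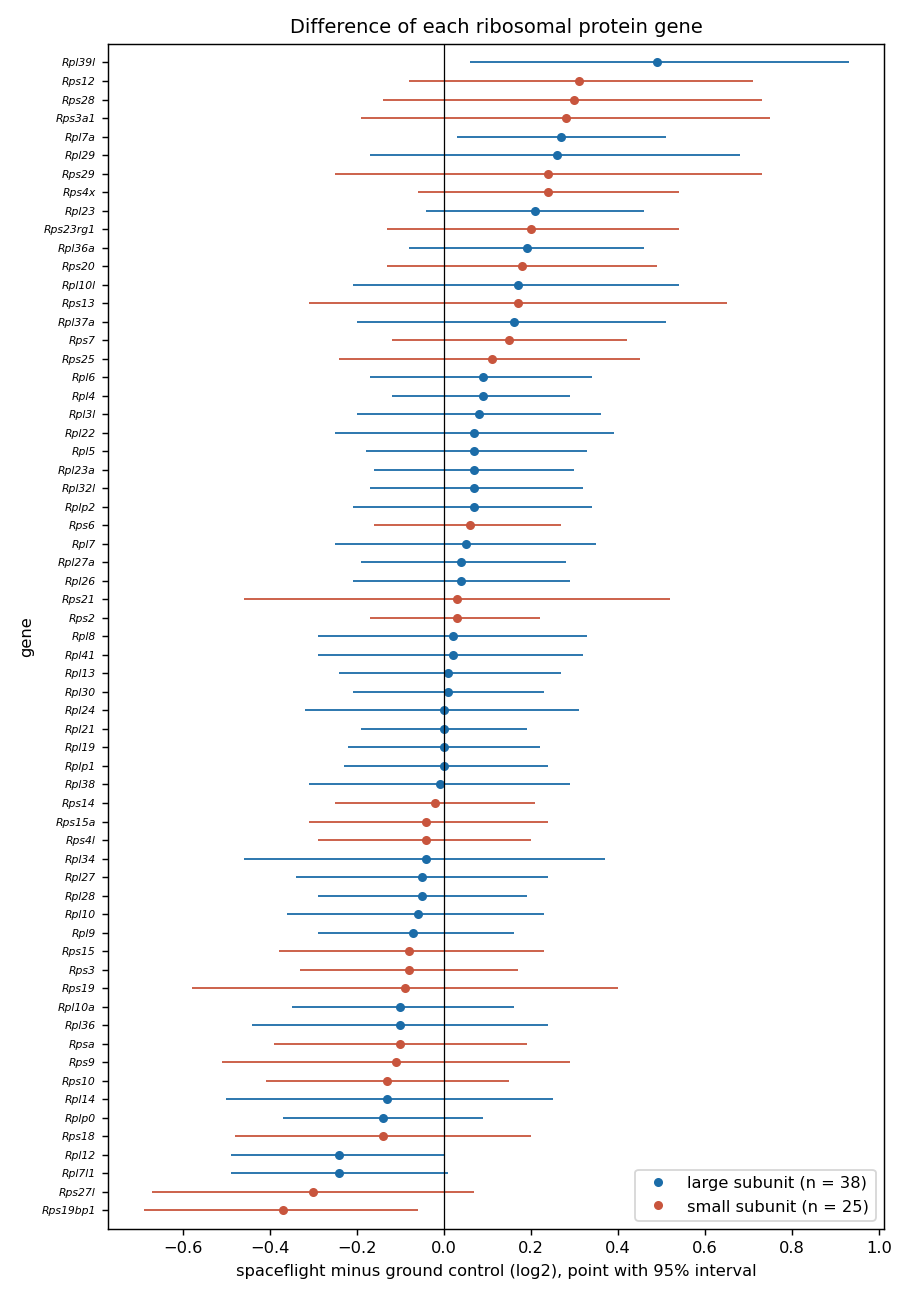
Difference of each of the 63 ribosomal protein genes, spaceflight minus ground control on the log2 scale, as a point with its 95% interval from the limma fit, 4 arrays per group, coloured by subunit. Most points lie within 0.3 of 0, the ends are Rps19bp1 at -0.37 and Rpl39l at 0.49, and none passed at an adjusted p under 0.05.

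The median difference over the 63 genes was 0.022 on the log2 scale, with quartiles of -0.06 and 0.13. The median over all probe sets was 0.008, and over the 19938 genes -0.018. Among 952 other probe sets with a mean of 10 or more it was -0.046, and 37.7% of those were higher in spaceflight. Only the single-gene probe sets of the 63 genes had been left out of these 952. Probe sets that list several genes, some of them ribosomal protein genes, could remain. The 35 ribosomal protein genes with a mean of 10 or more had a median of 0.004, with 51.4% higher. The 28 with a mean under 10 had a median of 0.069, with 64.3% higher. The replicate spread of the median of all 63 genes, 0.118 (the larger of the SDs of the array medians of each group), is larger than its difference between groups. The 95% intervals of the single genes, not adjusted for their number, had standard errors of 0.09 to 0.22. They lay within a 1.5-fold change in either direction for 54 of the 63 genes and within a 2-fold change for all 63.

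Large and small subunit genes had similar median differences. The 38 large subunit genes had a median difference of 0.019, with 23 higher and 15 lower, and the 25 small subunit genes a median of 0.028, with 13 higher and 12 lower. Without the paralogs and other members that are no standard subunit, 33 large subunit genes had a median of 0.014 and 21 small subunit genes one of 0.032. The medians of the subunits differed by -0.01 (large minus small), and the array-by-array value of that quantity had an SD between replicates of 0.0637. It was -0.02, 0.05, 0.02 and -0.07 in ground control replicates 1 to 4, and 0.03, 0.07, -0.01 and -0.08 in spaceflight replicates 1 to 4. The ranges of the groups overlap nearly completely.

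The arrays differed from each other more than the groups did. Set against each gene's mean in ground control, the median of the 63 genes was 0.07, -0.08, -0.12 and 0.11 in ground-control replicates 1 to 4. In spaceflight replicates 1 to 4 it was -0.07, 0.01, -0.03 and 0.20. Most ribosomal protein genes shifted together among the control mice too: 56 of 63 lay above the control mean in replicate 4 and 50 of 63 below it in replicate 2. The other probe sets with a mean of 10 or more had medians between -0.02 and 0.02 in the control arrays and between -0.08 and 0 in the spaceflight arrays.

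**Figure D2:**
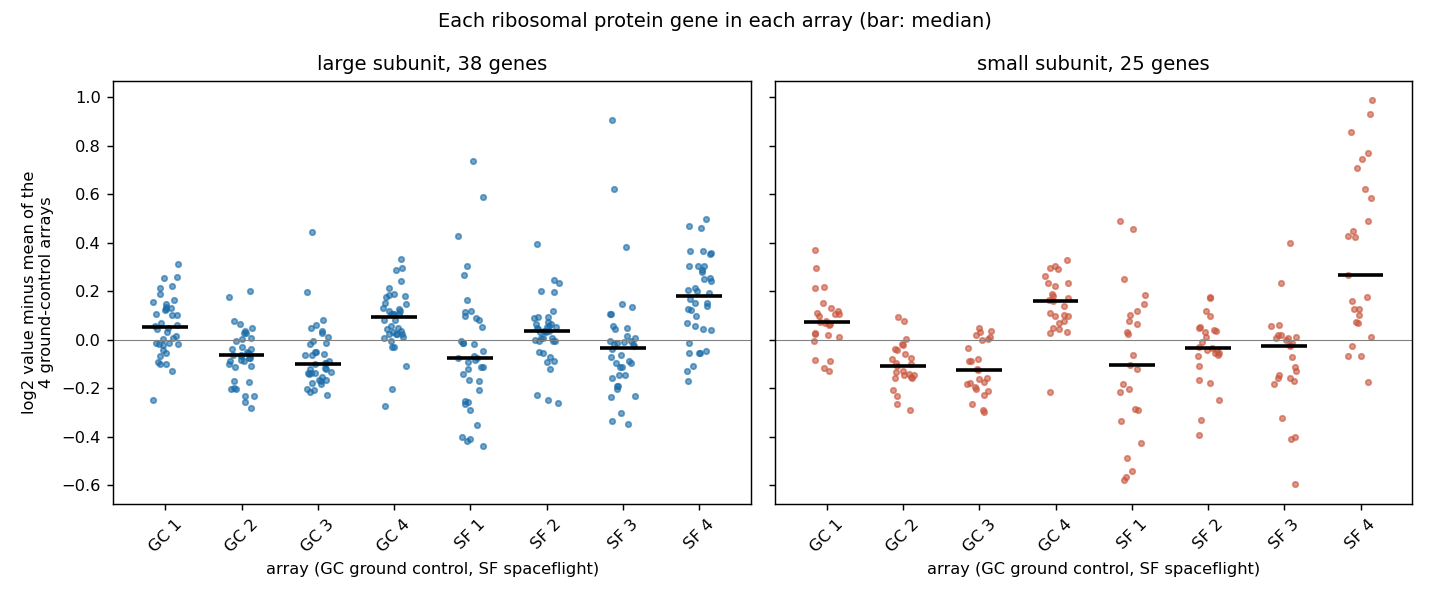
Log2 value of each ribosomal protein gene minus its mean over the 4 ground-control arrays, by array, for 38 large subunit genes (left) and 25 small subunit genes (right). Points are genes and bars are medians; spaceflight replicate 4 is the highest array in both panels, with medians of 0.18 and 0.26, and several small subunit genes there reach above 0.5.

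Spaceflight replicate 4 was the highest of the 8 arrays for 33 of the 63 genes, 17 of 38 in the large and 16 of 25 in the small subunit. Over all probe sets it was the highest in 12.8%. Against the mean of the other 7 arrays, 10 ribosomal protein genes were higher by more than 0.5 in that array, 9 of them in the small subunit and 1 (Rpl34) in the large. Over all probe sets, 2.72% passed that size. This array was picked out after its values were seen, so the counts are a description with no test. Its interquartile range, 2.82, was like that of the control arrays, while its macrophage and epithelial marker sums were the highest of the 8 arrays. The epithelial sum is mostly that of the bright Prss16 and Ctsl. Of the dimmer markers, Foxn1 (-0.63), Psmb11 (-0.79) and Krt5 (-0.66) were lower in all 4 spaceflight arrays than in any control, this array included. None of them passed (limma adjusted p = 0.142, 0.207 and 0.348). Aire, also dim, differed by -0.10 (limma adjusted p = 0.709), with overlapping groups. It read 6.91 in this array and 6.79 to 6.92 in ground control. The part of these cells in the ribosomal protein values was not tested.

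Rps28 and Rps29, small proteins of the small subunit head, were the clearest cases. Rps28 read 9.30, 9.17, 8.96 and 9.33 in ground control and 9.29, 9.31, 9.21 and 10.12 in spaceflight. The first 3 spaceflight arrays sat among the controls, and the fourth stood 0.90 above the mean of the other 7 arrays. Its group difference of 0.30 ± 0.19 (SE; limma adjusted p = 0.557) became 0.08 without spaceflight replicate 4. Rps29 read 9.36, 9.34, 9.06 and 9.29 in ground control and 9.14, 9.44, 9.19 and 10.25 in spaceflight. Its difference of 0.24 ± 0.22 (adjusted p = 0.658) became -0.01 without spaceflight replicate 4.

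Rps13, a small subunit protein, read 8.64, 8.39, 8.27 and 8.84 in ground control and 8.43, 8.48, 8.54 and 9.39 in spaceflight. Its difference of 0.17 ± 0.22 (adjusted p = 0.75) became -0.05 without spaceflight replicate 4. Rps3a1, another small subunit protein, read 9.69, 9.19, 9.03 and 9.37 against 9.81, 9.36, 9.16 and 10.09, and its difference of 0.28 ± 0.21 (adjusted p = 0.597) became 0.12 without that array. In both genes the spaceflight arrays other than replicate 4 lay within or close to the range of the controls. Rps21 (0.83 above the mean of the other 7 arrays), Rps19 (0.76), Rps12 (0.63), Rps9 (0.58) and Rps4x (0.53) were the other small subunit genes past 0.5 in that array.

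The same array was highest in every single-gene probe set of these genes. It was so in 7 of 7 probe sets of Rps28, 4 of 4 of Rps29, 3 of 3 of Rps13, 14 of 14 of Rps12, 5 of 5 of Rps4x and 6 of 6 of Rps25. These are not independent readings. Ribosomal protein genes have many near-identical copies in the genome, the 219 single-gene probe sets of the 63 genes held only 207 distinct rows of values, and the 14 probe sets of Rps12 held 8. Over the distinct rows, spaceflight replicate 4 was the highest array in 58 of 80 for the small subunit and in 56 of 127 for the large.

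**Figure D3:**
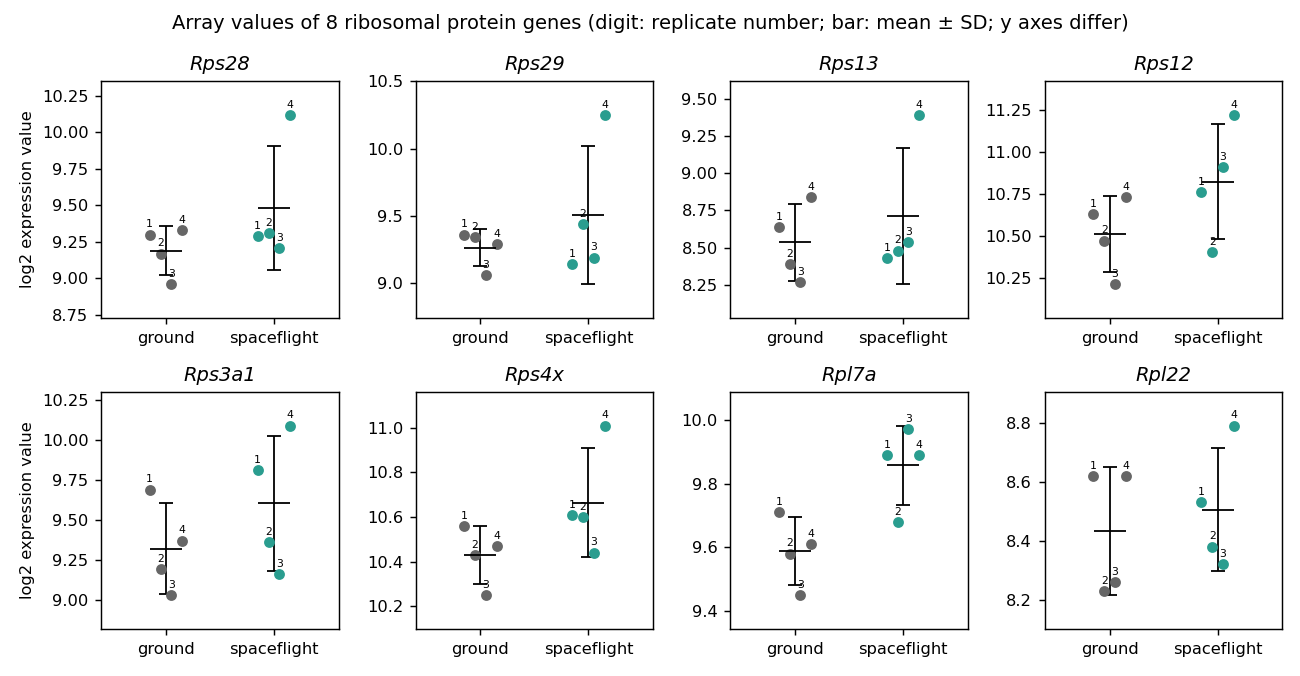
Log2 expression value of 8 ribosomal protein genes in each array, with digits giving the replicate number and bars the mean ± SD of 4 arrays per group; the y axes differ. In Rps28, Rps29 and Rps13 spaceflight replicate 4 stands alone at 10.12, 10.25 and 9.39, while in Rpl7a and Rpl22 it lies closer to the other spaceflight arrays.

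Without spaceflight replicate 4, 26 of the 63 genes had a higher mean in spaceflight and their median difference was -0.024. Then 2 genes were higher at an unadjusted p under 0.05 (Rpl39l and Rpl29) and 6 were lower (Rps19bp1, Rps27l, Rps9, Rpl12, Rps19 and Rpl7l1), with a smallest adjusted p of 0.214. Of all probe sets, 8.69% were higher and 8.67% lower by that measure. Without spaceflight replicates 1 and 3, 51 of 63 had a higher mean and the median difference was 0.113. Then 4 genes were higher at an unadjusted p under 0.05 (Rps29, Rpl23, Rps4x and Rps28) and 0 were lower, with a smallest adjusted p of 0.67, where 2.96% of all probe sets were higher and 3.66% lower. Without ground control replicate 3 the median difference was -0.005, with 30 of 63 higher. The direction of the median thus depended on single arrays of both groups.

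Among the paralogs, Rpl39l had the largest difference of the 63 genes. It encodes a variant of the exit-tunnel protein Rpl39 that is known from male germ cells. It read 4.12, 4.17, 3.90 and 3.79 in ground control and 4.73, 4.39, 4.90 and 3.94 in spaceflight. The highest readings were those of spaceflight replicates 1 and 3, and replicate 4 lay within the control range. The difference was 0.49 ± 0.20, or 1.41-fold (unadjusted p = 0.0298, limma adjusted p = 0.466), and it was 0.17 without spaceflight replicates 1 and 3. These are dim readings: the median of all probe sets tested lay between 6.01 and 6.10 on every array.

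Rpl7l1, a paralog of Rpl7 that works in the assembly of the large subunit, was the single gene whose groups did not overlap. It read 9.37, 9.19, 9.19 and 9.21 in ground control and 8.83, 9.17, 8.89 and 9.11 in spaceflight. The gap between the groups was small, 9.17 against 9.19. The difference was -0.24 ± 0.11 (adjusted p = 0.497) and -0.10 without spaceflight replicates 1 and 3. Rpl7 itself differed by 0.05 ± 0.13.

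Rps27l, a paralog of Rps27 and a known p53 target, read 7.65, 7.39, 7.50 and 7.95 in ground control and 7.08, 7.23, 7.22 and 7.75 in spaceflight. Replicates 1 to 3 of spaceflight lay below every control and replicate 4 among them. The difference was -0.30 ± 0.17 (adjusted p = 0.521), or -0.13 without spaceflight replicates 1 and 3. Rps19bp1, which fits the naming rule but encodes a protein that binds Rps19, read 7.71, 7.50, 7.56 and 7.82 against 7.08, 7.40, 7.05 and 7.58. Its difference of -0.37 ± 0.14 (unadjusted p = 0.0252, adjusted p = 0.462) was the lowest of the 63, and it was -0.16 without spaceflight replicates 1 and 3. None of the other paralogs passed: Rpl3l, known from muscle, at 0.08 ± 0.13, Rpl10l, known from testis, at 0.17 ± 0.17, Rps4l at -0.04 ± 0.11, Rpl32l at 0.07 and Rps23rg1, a retroposed copy of Rps23, at 0.20 ± 0.15. Their relatives Rpl10 (-0.06 ± 0.13) and Rps4x (0.24 ± 0.14) did not pass either.

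Rpl22, the large subunit protein with a known role in thymocytes, read 8.62, 8.23, 8.26 and 8.62 in ground control and 8.53, 8.38, 8.32 and 8.79 in spaceflight. The groups overlapped over nearly their whole range, and the difference was 0.07 ± 0.14 (adjusted p = 0.847), with a 95% interval from -0.25 to 0.39. Rpl5, which with Rpl11 and the smallest ribosomal RNA forms the particle that binds Mdm2 when ribosome assembly fails, differed by 0.07 ± 0.12 (adjusted p = 0.809). Rpl11 has no value here.

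In the large subunit, Rpl7a had the highest difference among the standard proteins. It read 9.71, 9.58, 9.45 and 9.61 in ground control and 9.89, 9.68, 9.97 and 9.89 in spaceflight. Of the spaceflight arrays 3 lay above every control, and replicate 2 lay within the control range. The difference was 0.27 ± 0.11, or 1.21-fold (unadjusted p = 0.0285, adjusted p = 0.464), and its 3 probe sets gave 0.13 to 0.27. Rpl29, a large subunit protein, read 8.77, 9.07, 8.64 and 9.0 against 9.46, 8.87, 9.49 and 8.70, with spaceflight replicates 1 and 3 highest and replicates 2 and 4 among the controls. Its difference was 0.26 ± 0.19 (adjusted p = 0.596), and it turned to -0.09 without spaceflight replicates 1 and 3. Rpl23 (0.21 ± 0.11) and Rpl36a (0.19 ± 0.12) were the next, and Rpl12, part of the base of the stalk, was the lowest standard protein at -0.24 ± 0.11 (adjusted p = 0.492).

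The P stalk, the arm of the large subunit that takes up elongation factors, is built from Rplp0, Rplp1 and Rplp2. Rplp0 read 12.52, 12.49, 12.61 and 12.68 in ground control and 12.32, 12.57, 12.34 and 12.52 in spaceflight, with replicates 1 and 3 of spaceflight lowest. Its difference was -0.14 ± 0.10 (adjusted p = 0.596), or -0.03 without those 2 arrays. Rplp1 averaged 11.73 in both groups, with an SD of 0.01 in ground control and 0.16 in spaceflight. Rplp2 differed by 0.07 ± 0.12. Of the proteins that line or ring the exit tunnel, Rpl4 differed by 0.09 ± 0.09, Rpl23a by 0.07 ± 0.10 and Rpl19 by 0.00 ± 0.10.

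In the small subunit, the proteins along the mRNA path had small differences: Rps2 0.03 ± 0.09, Rps3 -0.08 ± 0.11, Rps15 -0.08 ± 0.14 and Rpsa, which is also known as a laminin receptor, -0.10 ± 0.13. The sign for Rpsa rests on its brightest probe set, as the other 4 of its 5 gave positive differences of up to 0.22. Rps6, the ribosomal substrate of the S6 kinases, differed by 0.06 ± 0.10. Rps12 had the highest difference of the subunit, 0.31 ± 0.18 (adjusted p = 0.521), from 10.51 ± 0.23 to 10.82 ± 0.34 (mean ± SD, n = 4). It read 10.63, 10.47, 10.21 and 10.73 in ground control and 10.76, 10.40, 10.91 and 11.22 in spaceflight, so that spaceflight replicate 2 lay below 3 of the 4 controls. Without spaceflight replicate 4 it differed by 0.18. Rps18 read 11.66 in spaceflight replicate 1 and 12.23 to 12.26 in the other spaceflight arrays, and differed by -0.14 ± 0.15, or by 0.00 without spaceflight replicates 1 and 3.

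Diamond-Blackfan anaemia is a failure of red cell formation caused by too little of a single ribosomal protein. Of a list of 14 genes mutated in it, 7 were measured. The list need not hold every such gene, and other members may belong to it. Of these 0 passed, 5 had a higher and 2 a lower mean in spaceflight, and their median difference was 0.072, where that of all probe sets was 0.008. Without spaceflight replicate 4, 3 were higher and 4 lower, with a median of -0.006. Rps28 and Rps29 are described above. Rps7 differed by 0.15 ± 0.12 and Rps10 by -0.13 ± 0.13.

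The spread between replicates was smaller for the brightest probe sets. The median SD within groups was 0.22 for the 14 genes with a mean under 8, 0.23 for 14 genes from 8 to 10, and 0.20 for 15 genes from 10 to 11. It was 0.12 for 13 genes from 11 to 12 and 0.10 for 7 genes at 12 or more. All probe sets followed the same course, from 0.20 to 0.10. From the dimmest to the brightest of these levels, the median difference of the genes was 0, 0.17, 0, 0.03 and -0.06. Over all probe sets at the same levels it was 0.03, -0.1, -0.06, -0.01 and -0.02. Rpl21 shows the bright end: it read 12.31, 12.36, 12.31 and 12.32 in ground control and 12.32, 12.33, 12.37 and 12.28 in spaceflight, a difference of 0.00 ± 0.09. Where a gene had several probe sets, as 39 of the 63 did, they gave differences of both signs in 11 genes. The widest ranges were those of Rps28 (0.12 to 0.47, 1 sign) and Rpsa (-0.10 to 0.22).

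The sequence around the start sites was searched for the pyrimidine tract. RefSeq promoter windows (GRCm38.p6), 250 bases before to 50 after each annotated start, were found for 51 of the 63 genes. The letters CTTTCC or CTCTTTC on the transcribed strand, short forms of the pyrimidine tract, were searched within 50 bases of the start (CTCTTTCC counts for both). They were present in 14 of 51 genes, or 27.5%, 11 of 30 in the large and 3 of 21 in the small subunit, against 6.44% of all 27025 genes with a window. The following windows, 20 bases before to 10 after the annotated start, show these letters in capitals for members that hold them there. For Rpl28 and Rpl38 they begin at the first base of the annotated transcript. In Rpl4, Rpl5, Rps15a and Rpl39l they lie before the annotated start.
Rpl28 (chr7:4792945-4792974, plus strand): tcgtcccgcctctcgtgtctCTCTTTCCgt
Rpl38 (chr11:114668560-114668589, plus strand): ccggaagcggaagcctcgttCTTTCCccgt
Rpl4 (chr9:64173367-64173396, plus strand): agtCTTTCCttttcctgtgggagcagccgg
Rpl5 (chr5:107900508-107900537, plus strand): CTCTTTCtcacgtcgcttgcgtgctggtgg
Rps10 (chr17:27635235-27635264, minus strand): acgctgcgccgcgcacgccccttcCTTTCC
Rps15a (chr7:118116138-118116167, minus strand): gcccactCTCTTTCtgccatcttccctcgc
Rpl39l (chr16:10170208-10170237, plus strand): cctagctcccaggcCTTTCCggatttccgg

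The next windows, of the same length, belong to Rps28 and Rps13 and to the paralogs Rpl7l1 and Rpl10l. Of the genes with a window, Rps28 and Rps13 stood furthest above the mean of the other 7 arrays in spaceflight replicate 4. The letters searched for were not found in these windows.
Rps28 (chr17:33824553-33824582, minus strand): tcctgggtaccgcgtgcggtctcgcgagag
Rps13 (chr7:116334181-116334210, minus strand): cgcgcgagagcaaacgtcggtgagtggcgt
Rpl7l1 (chr17:46782647-46782676, minus strand): gcccggtgaggctgcgcaagcgcagtagct
Rpl10l (chr12:66284392-66284421, minus strand): agaaatttggcctccattttgcggctggcg

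Over the whole 300-base window, CCGGAAG, the core that ETS factors bind, was present on either strand in 19 of 51 genes (37.3%, against 9.93% of all genes), 9 of 30 in the large and 10 of 21 in the small subunit. TATAAA was present on either strand in 6 of 51 (11.8%, against 15.7%). A match is only a match of letters, and annotated starts can lie some bases from the true one. The 14 genes with CTTTCC or CTCTTTC within 50 bases of the start had 7 higher, 6 lower and 1 at 0 to 2 decimals. They ran from -0.13 (Rps10) to 0.49 (Rpl39l), with a median of 0.02. The 37 genes without these letters there ran from -0.37 to 0.31, with a median of 0.03. Other pyrimidine runs were not counted, and the Rpl7a window, for one, holds a long run without these letters. This split therefore does not separate genes with and without a TOP motif. Of the genes shown above, Rpl28 differed by -0.05, Rpl38 by -0.01, Rpl4 by 0.09, Rpl5 by 0.07, Rps10 by -0.13, Rps15a by -0.04 and Rpl39l by 0.49.

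Mitochondrial ribosomal protein genes, which build the separate ribosome of mitochondria, read differently on the same arrays. Of 78 measured (symbols starting with Mrpl or Mrps and a digit, and Dap3), 0 passed at an adjusted p under 0.05, and 71 had a lower mean in spaceflight. Their median difference was -0.188, 17 were lower at an unadjusted p under 0.05 and 0 higher, where 5.96% of all probe sets were lower. Their groups did not overlap in 11, all lower, where 3.75% of all probe sets did so. By array, their median against the ground-control mean was -0.41, -0.11, -0.31 and 0.02 in spaceflight replicates 1 to 4, so that the low values lay in replicates 1 and 3, the arrays that stood apart. Without those 2 arrays the median difference was -0.043 and 46 of 78 were lower. Then 4 were lower at an unadjusted p under 0.05, where 3.66% of all probe sets were. Mrpl15 read 7.04, 6.87, 6.90 and 6.97 in ground control and 6.36, 6.63, 6.50 and 6.64 in spaceflight, with no overlap, and differed by -0.41 ± 0.10 (adjusted p = 0.326). Without spaceflight replicates 1 and 3 it differed by -0.31. Mrpl50 and Mrpl38 each differed by -0.52 (adjusted p = 0.348 and 0.396). The difference between the cytosolic and the mitochondrial genes was not tested.

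**Figure D4:**
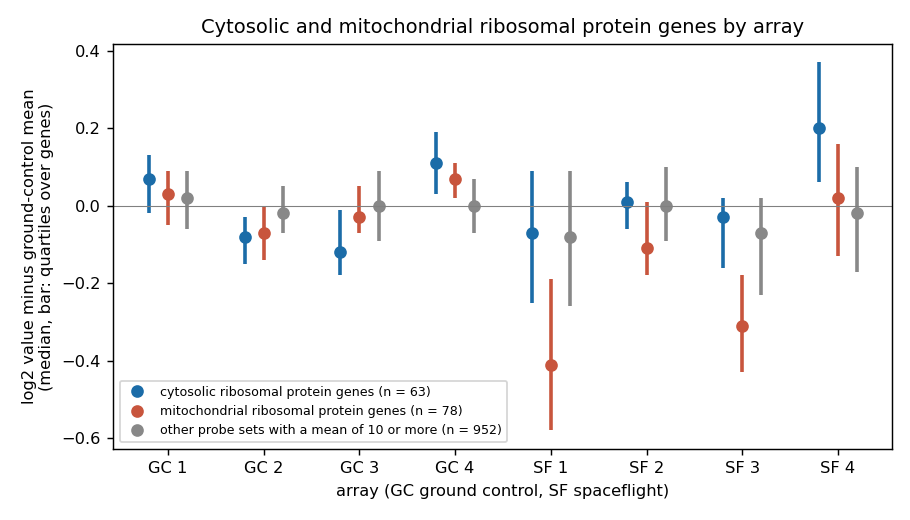
Median (point) and quartiles (bar) of log2 value minus ground-control mean in each array, for 63 cytosolic ribosomal protein genes, 78 mitochondrial ribosomal protein genes and 952 other probe sets with a mean of 10 or more. The mitochondrial genes lie at -0.41 and -0.31 in spaceflight replicates 1 and 3, where the cytosolic genes lie at -0.07 and -0.03, and the cytosolic genes reach 0.20 in spaceflight replicate 4.

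Other genes of translation also held 0 calls. Fau, which carries a ribosomal protein fused to a ubiquitin-like part, was the single measured gene of 3 that belong to the ribosome under other names, and it differed by -0.04 ± 0.10. Of the elongation factors, 5 of 6 were measured, and Eef2, which moves the ribosome along the mRNA, differed by 0.04 ± 0.11. Eif5a, which helps stalled ribosomes go on, read 10.22 to 10.75 in ground control and 9.74 to 10.25 in spaceflight. A single spaceflight array, replicate 2, reached the control range, and the difference was -0.53 ± 0.15 (adjusted p = 0.39).

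Of 27 initiation factors 22 were measured, with 6 higher and 16 lower in mean and a median of -0.117. Without spaceflight replicates 1 and 3, 11 were higher and 11 lower, with a median of 0.012. The cap-binding protein Eif4e read 9.75, 9.86, 9.77 and 9.78 in ground control and 9.15, 9.65, 9.45 and 9.28 in spaceflight, with no overlap. It differed by -0.40 ± 0.12 (adjusted p = 0.396), and by -0.32 without spaceflight replicates 1 and 3. Eif3b, of the scaffold eIF3, differed by -0.36 ± 0.14 and the helicase Eif4a1 by -0.23 ± 0.09 (adjusted p = 0.464 and 0.471). Without those 2 arrays they differed by -0.13 and -0.20. Other mRNAs with a TOP start (4 of 5 measured) had a median of 0.057: Pabpc1, the poly(A)-binding protein, differed by 0.11 ± 0.10, the nucleolar protein Npm1 by 0.06 ± 0.12 and the histone chaperone Nap1l1 by 0.05 ± 0.13.

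Regulators of mTOR signalling and of TOP mRNAs (13 of 14 measured) had 3 higher and 10 lower in mean and a median of -0.155, or 5 higher, 8 lower and -0.041 without spaceflight replicates 1 and 3. The 3 of smallest p were all lower. Tsc1, which restrains mTOR, differed by -0.26 ± 0.11 and the mTOR partner Mlst8 by -0.30 ± 0.13. Larp1, which binds the TOP motif, differed by -0.28 ± 0.14 (adjusted p from 0.481 to 0.501 for these 3). Larp1 differed by -0.13 without spaceflight replicates 1 and 3. The largest difference of the list was higher, that of Ddit4 at 0.40 ± 0.26 (limma adjusted p = 0.55), which read highest in spaceflight replicate 4 (9.41). Chaperones of ribosomal proteins and late subunit maturation factors (16 of 16 measured) had 5 higher and 11 lower in mean and a median of -0.108. Without spaceflight replicates 1 and 3 this turned to 12 higher and 4 lower, with a median of 0.064. Among them Tsr1 and Ltv1, which mature the small subunit, differed by -0.27 ± 0.11 and -0.28 ± 0.13, and Grwd1, which escorts Rpl3, by -0.26 ± 0.11 (adjusted p from 0.481 to 0.495). All of these are values that did not pass, beside a median of 0.008 over all probe sets.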

How the data were processed

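Per the submitters' processing notes, the authors made log2 expression values with RMA and used limma; their versions, the build and any filters are not given in the sources used here. Deposited log2 values of 8 arrays entered unchanged. Of 35557 rows, the lowest unbroken run of identifiers (6614, none annotated) was taken as controls and left out, leaving 28943 probe sets, 21789 with a single gene, of which 21698 matched the RefSeq gene table (GRCm38.p6). Spaceflight minus ground control was fitted by lmFit and eBayes of limma 3.58.1 (R 4.3.3), without a block, as a two-sided test adjusted over all probe sets at 0.05. With 4 arrays a group, precision is limited by that number. The fit was tested on simulated, normally spread data. There it called 11 of 50 changes of 0.5 on the log2 scale (22%) and 39 of 50 changes of 1 (78%). Changes of the size measured in the ribosomal protein genes, at most 0.49, could thus mostly go uncalled.

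The rule for members and the lists were chosen with earlier results of these data known. Named genes were the 5 highest and 5 lowest differences per subunit, the 3 brightest and 3 dimmest members, members of the role lists (from the larger ones up to 4 of smallest p), members with an array far from the others, and up to 3 genes of smallest p per other list. Rps19, Rps21, Rps15a, Rps23rg1, Rpl32l, Rpl34, Rpl28, Rpl38 and Ddit4 were named after their values were seen. Alternatives were other centring, repeated quantile normalization, filters, rows kept, a gene-level table, probe set means, robust moderation, array weights, a replicate block, and arrays left out. The sample titles name no pairing of mice, and replicate numbers were not taken as one in the main fit. Deviations from the group means of arrays with the same number correlated at 0.25, -0.40, -0.29 and 0.10. With few arrays and shifts of whole arrays, these values cannot settle whether the numbers pair the mice.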

Additional observations from a re-analysis of the deposited data

Results flagged for a closer look

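In 126 groups of 4 arrays (63 genes in each group), 11 held an array that stood far from the other 3 by Dixon's test, or 8.73%. Chance alone gives about 1 in 20 for independent, normally spread values. These genes shifted together by array, and the share over all probe sets was not computed. The count is therefore a description, and no excess is read from it. Spaceflight replicate 4 was that array in 4 small subunit genes: Rps28 at 10.12 against 9.21 to 9.31 in the other 3, Rps13 at 9.39 against 8.43 to 8.54, Rps25 at 11.33 against 10.87 to 10.93, and Rps7 at 11.57 against 11.18 to 11.22. Rps18 stood low in spaceflight replicate 1, at 11.66 against 12.23 to 12.26. In ground control, Rpl12 at 6.47 and Rpl30 at 7.91 stood low in replicate 3, and Rps2 at 11.87 stood low in replicate 2. Rpl10 at 11.98 stood low in replicate 1, where Rpl7l1 at 9.37 stood high, and Rplp2 at 6.96 stood high in replicate 4.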

How the results depend on the processing

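Under all 21 alternatives, 0 of the ribosomal protein genes passed at an adjusted p under 0.05 by limma, the smallest being 0.214 without spaceflight replicate 4. The medians moved by less than their replicate spread. That spread comes from the same arrays, so leaving some out can hardly exceed it, and several other settings leave the differences unchanged. No stability is read from it. The median of the ribosomal protein genes ran from -0.024 (without spaceflight replicate 4, 26 of 63 higher) to 0.113 (without spaceflight replicates 1 and 3, 51 of 63 higher), so its sign changed. It was 0.101 after centring on the 75th percentile. That centring moved the median of all probe sets from 0.008 to 0.087 and the higher genes from 36 to 49 of 63. Unadjusted p under 0.05 was reached by 2 genes higher and 1 lower in the main fit. The higher count was 4 after that centring, 4 without spaceflight replicates 1 and 3, and 1 with array weights, with the replicate block, with a mean of all probe sets, without probe sets of a mean under 5, without the paralogs and Rps19bp1, and with Rps23rg1 also left out (chosen after seeing the data). The lower count was 2 with array weights and with the replicate block, and 0 without those 2 arrays, without the paralogs, and with Rps23rg1 also left out. Leaving out single arrays gave 0 to 2 genes higher and 0 to 6 lower, and 8 to 30 mitochondrial ribosomal protein genes lower where the full set gave 17 (8 without ground control replicate 4, 11 without spaceflight replicate 1, 10 without spaceflight replicate 3 and 30 without spaceflight replicate 4). Without spaceflight replicates 1 and 3 that count was 4, and 46 of 78 had a lower mean. The replicate block called 0 probe sets of all, where the main fit called 14. Of 1612 values of named genes, 77 changed sign and 0 passed the threshold. Only in the macrophage marker C1qa did both values lie over 1 SE from 0, at -0.42 and, without spaceflight replicates 1 and 3, 0.21. The causes were not tested. Levels of different probe sets cannot be compared.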
